A study of Saccharomyces cerevisiae with 9 samples.

Results

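The nuclear genes for the respiratory chain and the ATP synthase of budding yeast mitochondria were followed through 2 kinds of heat stress. There are 38 of them among the 7126 annotated features of the deposited tables. They were taken by their systematic identifiers, from a list chosen with earlier results of these data known. The list holds 15 genes of the ATP synthase and its inhibitor, 9 subunits of complex IV (cytochrome c oxidase), 9 of complex III (the cytochrome bc1 complex), 2 cytochromes c and 3 NADH dehydrogenases. All 38 passed the filter on low values used for testing (a mean of at least 10 normalized counts), and the fewest reads counted on any of them in any library was 208. In the R64 annotation they lie on 14 chromosomes, none overlaps another annotated gene, and only COX5B, QCR9 and QCR10 have an intron in the coding sequence. Overlaps with dubious reading frames, which that annotation leaves out, were not examined.

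RNA came from BY4742, a haploid MATα laboratory strain that GEO labels as wild type and that carries his3Δ1, leu2Δ0, lys2Δ0 and ura3Δ0. Cells were grown for 48 h at 25 °C in YPD, a rich glucose medium, into stationary phase, and 3 independent cultures each gave a control sample (CTL), a heat ramp sample (HR) and a heat shock sample (HS). The heat ramp went from 25 to 50 °C at 0.5 °C/min and the heat shock at 50 °C/min, both with 30 min at 50 °C and a fast return to 25 °C, whereas control cells were collected without heating. The ramp therefore took longer than the shock, so that rate and time cannot be told apart, and the design asks how the speed of heating changes the transcriptome. In these bulk samples, fewer intact cells, less RNA per cell, RNA kept from before the stress and RNA newly made cannot be told apart. The paper gives only an upper bound for RNA integrity over all samples, and integrity by library was not examined.

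The libraries held 26859792 to 27233289 counted reads for CTL, 22579312 to 24415433 for HR and 23543523 to 24341005 for HS. Values are normalized counts, that is, reads scaled by the size factor that DESeq2 gave to each library. Those size factors were 1.40 to 1.46 for CTL, 1.11 to 1.13 for HS and only 0.610 to 0.714 for HR, so the scale used for HR bears on every comparison. When the libraries were instead scaled to the same total count, the middle value of log2 fold change among all 6847 features tested moved from −0.01 to −0.92 for HR against CTL, from 0.04 to −0.13 for HS against CTL and from 0.04 to −0.70 for HR against HS. Directions of the 38 genes that turn under that scaling are named with the results. The deleted genes LEU2, LYS2 and URA3 had 0 reads in every library, which allows up to 3 reads each by counting error alone.

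Electrons from NADH enter this chain through single-polypeptide dehydrogenases, since budding yeast has no proton-pumping complex I, and pass by way of ubiquinone, complex III, cytochrome c and complex IV to oxygen, while the ATP synthase uses the proton gradient to make ATP. A few subunits of these complexes are encoded in mitochondrial DNA and are not among the genes described here. Many of the nuclear genes are switched on by the Hap2/3/4/5 complex, which binds CCAAT boxes when cells turn from fermentation to respiration. Stress genes are often switched on by Msn2 and Msn4 through AGGGG, and heat shock genes by Hsf1 through repeats of GAA. CYC7 and COX5B encode the minor forms of cytochrome c and of complex IV subunit 5, known for their use when oxygen is low.

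The 500 bases before the start codon were searched on both strands for the Hap box CCAAT, for the stress element AGGGG and for a heat shock element written as GAANNTTC (genome and annotation R64 from RefSeq, the assembly that the methods name SacCer3). CCAAT was found for 34 of the 38 genes (89.5%) against 62.5% of 5986 promoters of the same length, and COX4, CYT1, CYC1 and NDE2 lacked it in this window. AGGGG was found for 18 of 38 (47.4%) against 34.1% of promoters, and GAANNTTC for 5 of 38 (13.2%) against 19.2%, the 5 being ATP3, ATP4, ATP17, COX5A and COX6. Windows are shown first for the 4 genes whose values on the deposited scale went up with the ramp and down with the shock, CYC7, COX5B, NDE2 and NDI1. Each reads 5′ to 3′ along the gene's strand, with AGGGG or its complement CCCCT in capitals.
CYC7, chrV:80297-80324, minus strand: gggttatagcgCCCCTtattgaattatt
CYC7, chrV:80237-80264, minus strand: gtcccccgccgAGGGGtcttttcccacc
CYC7, chrV:80153-80180, minus strand: aagtggccgcaAGGGGcaaagacaaagg
COX5B, chrIX:155033-155060, plus strand: aatgtcatggaCCCCTtaaaattactga
COX5B, chrIX:155049-155076, plus strand: taaaattactgAGGGGttcagaaaatac
NDE2, chrIV:303047-303074, plus strand: cctacaggcctCCCCTaataagtcagcc
NDE2, chrIV:303062-303089, plus strand: taataagtcagCCCCTccctttggagtg
NDI1, chrXIII:29968-29995, minus strand: taagagtgctcCCCCTtagcgctcttgg
The matches begin 336, 276 and 192 bases before the start codon of CYC7, 178 and 162 before that of COX5B, 153 and 138 before that of NDE2 and 177 before that of NDI1. The other 14 genes with AGGGG included 8 of the 21 that were lower after the heat ramp and 6 of the 12 that did not pass the test. RIP1, the other gene called higher after the heat ramp, had no AGGGG. Of the 5 genes higher after the heat shock, 4 had it too (ATP1, INH1, QCR10 and QCR9). INH1, lower with the ramp and higher with the shock, had matches beginning 279 and 142 bases before its start codon. The match is given as a description of these windows, and a relation to the changes was not tested. The second set shows CCAAT, or its complement ATTGG, for the 3 genes with the largest falls after the heat ramp, ATP20, ATP4 and ATP14.
ATP20, chrXVI:599690-599717, plus strand: tcttattcctgATTGGctgaaagaaaat
ATP4, chrXVI:408947-408974, minus strand: gagcgagcctcATTGGccgggtaatcga
ATP4, chrXVI:408917-408944, minus strand: tcaatattgaaCCAATcacgacgctttt
ATP14, chrXII:722554-722581, minus strand: ccatacacgaaCCAATtatgcatcataa
These boxes begin 169 bases before the start codon of ATP20, 219 and 189 before that of ATP4 and 197 before that of ATP14, which has a further one 459 bases before its start codon. CCAAT was also found for CYC7, COX5B and NDI1, and AGGGG for ATP14.

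In control cells the genes covered an 89.3-fold range of level per kilobase of coding sequence, from 924 normalized counts per kb for NDE2 to 82567 for COX9, a small subunit of complex IV. The median was 41520 normalized counts per kb for complex III, 20780 for complex IV and 17825 for the 5 subunits of the F1 head of the ATP synthase. Cytochrome c lay below the medians of these complexes, with 5673 normalized counts per kb for CYC7, close to the 5650 of RIP1 in complex III, and 1481 for CYC1. Spread between the 3 libraries of a group was small, with a median coefficient of variation over the 38 genes of 11% in CTL, 11.8% in HR and 14.7% in HS, and it was largest for ATP20 in HS (35.2%).

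**Figure D1:**
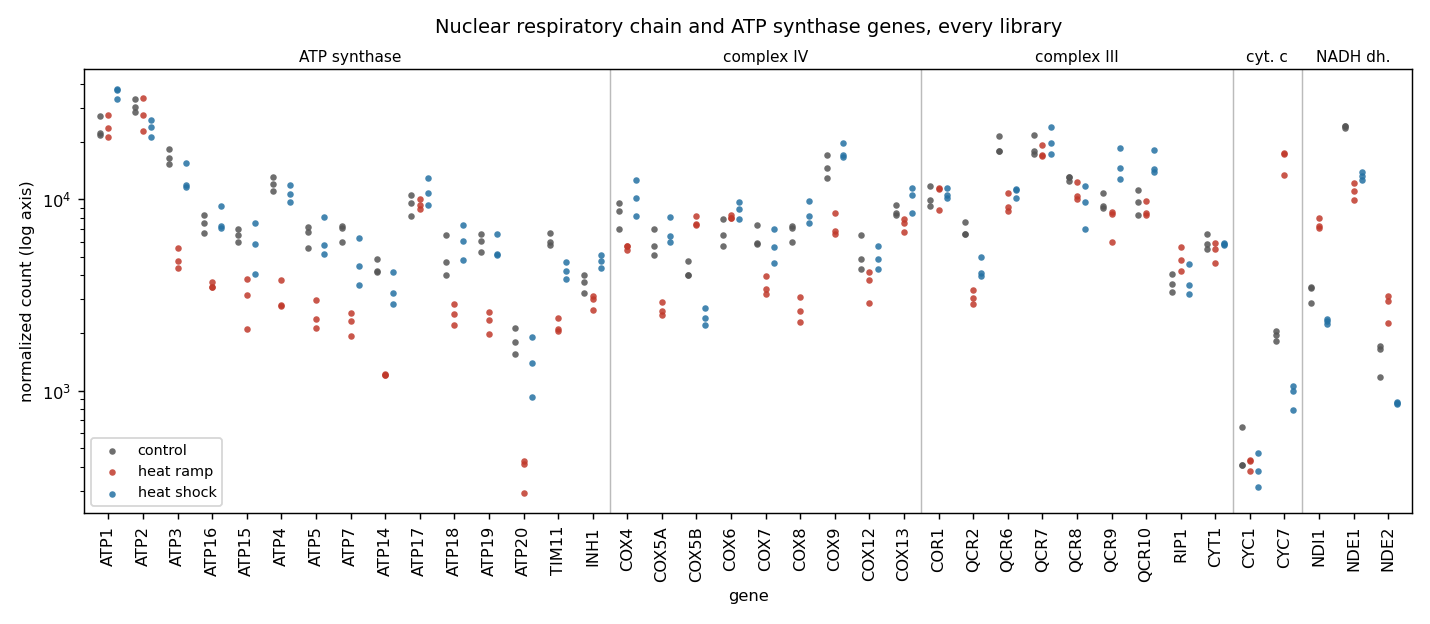
Normalized counts (log axis) of the 38 genes in all 9 libraries, 1 point per library, grouped by complex; grey is control, red heat ramp and blue heat shock. Most red points of the ATP synthase lie below the grey ones, while CYC7 rises from 1811 to 2051 in control to 13466 to 17512 after the heat ramp.

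After the heat ramp, most subunits of the ATP synthase fell on the deposited scale, and a few genes of the chain rose. Of the 38 genes, 21 were lower (adjusted p under 0.05), where 39.5% of all features tested were lower, and 5 were higher, where 39.0% of all features were. The median of their log2 fold changes was −0.55, where that of all features was −0.01. At a 2-fold change or more, 15 were lower (19.7% of all features) and 2 were higher (25.7% of all features). Under total count scaling 34 were lower (64.0% of all features) and 1 was higher (19.4% of all features), with a median of −1.47. Relative to the median of all features, the median of the 38 genes was −0.55 under either scaling.

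Of the 21 genes called lower, 12 were among the 15 of the ATP synthase, where none was higher, with a median log2 fold change of −1.39. ATP20 (YPR020W, chrXVI:599870-600217), which encodes subunit g at the dimer interface, had 1559, 2127 and 1791 normalized counts in CTL, 431, 291 and 416 in HR, and 1402, 1916 and 923 in HS. All HR values lay far below every other library, and CTL and HS overlapped. The ramp changed it on the log2 scale by −2.27 ± 0.23 (limma standard error, 3 libraries a group; adjusted p = 5.79e-07), the largest fall among the 38 genes, and after the heat shock −0.42 ± 0.23 (adjusted p = 0.131).

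ATP4 (YPL078C, chrXVI:408010-408744), subunit b of the peripheral stalk that holds the head still, had 11008, 13143 and 12055 normalized counts in CTL, 2782, 3767 and 2810 in HR, and 10612, 11839 and 9700 in HS. The HR libraries were again apart from the rest, with a log2 fold change of −1.96 ± 0.15 (adjusted p = 2.55e-08). ATP14 (YLR295C, chrXII:721999-722373), subunit h of the same stalk, had 4195, 4881 and 4236 normalized counts in CTL, 1209, 1218 and 1209 in HR, and 3252, 4160 and 2825 in HS. The HR libraries were nearly alike and below all others, and the highest HS library came just under the lowest CTL library. The ramp changed it by −1.87 ± 0.14 on the log2 scale (adjusted p = 2.7e-08) and the shock by −0.39 ± 0.14 (adjusted p = 0.0261).

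Falls of like size were found across the rotor, stalk and membrane part. ATP3, the gamma subunit of the central shaft, changed by −1.77 on the log2 scale, ATP7 (subunit d of the stalk) by −1.58, TIM11 (subunit e of the dimer interface) by −1.50, ATP5 (the stalk's OSCP subunit) by −1.40, ATP19 (subunit k) by −1.39, ATP15 (epsilon) by −1.14, ATP16 (delta) by −1.08 and ATP18 (subunit i/j) by −0.99. The catalytic hexamer gave other values. ATP1 (YBL099W, chrII:37053-38690), the alpha subunit, had 22262, 27300 and 21555 normalized counts in CTL, 23555, 21202 and 27611 in HR, and 33438, 37474 and 37506 in HS. CTL and HR overlapped (log2 fold change 0.02 ± 0.16, adjusted p = 0.892), and every HS library lay above them.

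ATP2, the catalytic beta subunit, changed by −0.15 ± 0.17 (adjusted p = 0.42) and ATP17, subunit f of the membrane part, by 0.01 ± 0.15 (adjusted p = 0.96) after the heat ramp, so neither passed the test. Under total count scaling ATP1, ATP2 and ATP17 fell too, by 0.89, 1.07 and 0.91 on the log2 scale, while the difference between subunits is the same under either scaling. It was not tested. Within single libraries the ratio of ATP4 to ATP1 counts was 0.512 ± 0.0417 in CTL, 0.133 ± 0.0400 in HR and 0.297 ± 0.0335 in HS (SD, n = 3), that of ATP3 to ATP2 was 0.540, 0.183 and 0.546, and that of ATP20 to ATP17 was 0.194, 0.0404 and 0.128. These pairs were chosen after their values were seen and carry no test. INH1 (YDL181W, chrIV:135179-135436), the peptide that blocks ATP hydrolysis by the synthase, had 3224, 4027 and 3705 normalized counts in CTL, 3016, 3125 and 2631 in HR, and 4355, 5088 and 4762 in HS. Its 3 groups did not overlap, and it alone was lower with the ramp (−0.32 ± 0.13, adjusted p = 0.0317) and higher with the shock (0.38 ± 0.13, adjusted p = 0.0195). The first call was lost without CTL replicate 2, CTL replicate 3 or HR replicate 3 (−0.30 to −0.24, adjusted p 0.088 to 0.14) and the second without CTL replicate 1 or HS replicate 2 (0.29 to 0.32, adjusted p 0.0698 to 0.0986) and under total count scaling (0.21, adjusted p = 0.218).

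**Figure D2:**
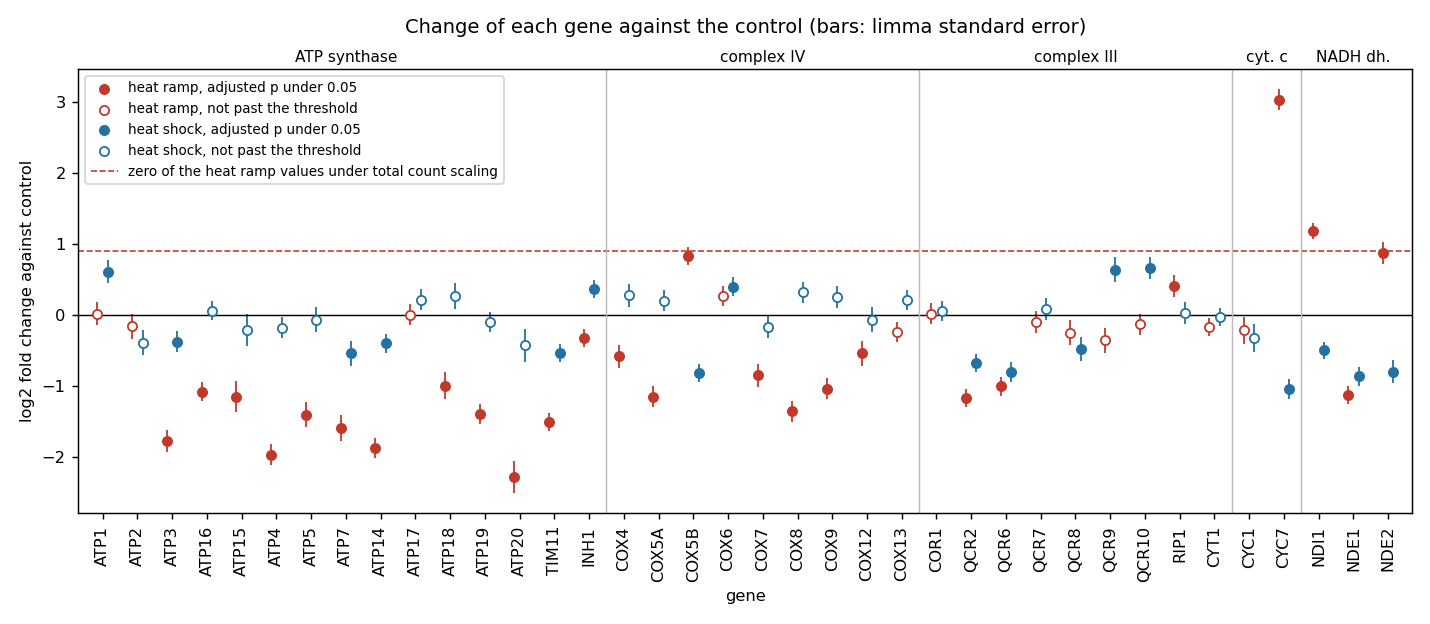
Log2 fold change against control of each gene after the heat ramp (red) and the heat shock (blue), with limma standard errors; filled points have an adjusted p under 0.05 and open points do not. Red ATP synthase points lie between −2.27 and 0.02, and the dashed line marks where zero would lie for the heat ramp under total count scaling, which only CYC7 and NDI1 exceed.

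Complex IV and complex III gave a mixed picture after the heat ramp. In complex IV 6 of 9 genes were lower and 1 higher. Those lower were COX8 (log2 fold change −1.35), COX5A (−1.14), COX9 (−1.03), COX7 (−0.85), COX4 (−0.57) and COX12 (−0.53), all small or peripheral subunits around the mitochondrially encoded core. COX8 (YLR395C, chrXII:909729-909965) had 6004, 7247 and 7043 normalized counts in CTL, 3094, 2289 and 2618 in HR, and 8208, 9834 and 7481 in HS. Its groups did not overlap, with HR at the bottom and HS at the top. COX6 (0.27, adjusted p = 0.0837) and COX13 (−0.23, adjusted p = 0.141) did not pass the test, and under total count scaling COX6 fell by 0.64. The COX12 call was lost without CTL replicate 2 (−0.37, adjusted p = 0.0788) or without HR replicate 3 (−0.38, adjusted p = 0.0715).

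In complex III, 2 of 9 genes were lower, 1 was higher and 6 did not pass the test. QCR2, a core subunit, changed by −1.16 ± 0.13 (adjusted p = 1.44e-06) and QCR6, the acidic hinge subunit, by −1.0 ± 0.14 (adjusted p = 1.26e-05). The other core subunit, COR1, overlapped between the groups (0.02 ± 0.14, adjusted p = 0.882), as did CYT1 for cytochrome c1 (−0.16, adjusted p = 0.254), QCR7 and QCR10. QCR8 (−0.24 ± 0.17, adjusted p = 0.208) and QCR9 (−0.35 ± 0.18, adjusted p = 0.0805) had every HR library below every CTL library without passing the test. RIP1, the Rieske iron-sulfur protein, was higher by 0.41 ± 0.15 (adjusted p = 0.0249), but this call was lost when any of 4 single libraries was left out (CTL replicate 1 or 3, HR replicate 1 or 3, adjusted p 0.0511 to 0.11), and under total count scaling its sign turned (−0.50). Under that scaling all 9 genes of complex III were lower, and those of complex IV were lower except COX5B (−0.08).

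The largest change among the 38 genes was that of CYC7 (YEL039C, chrV:79636-79977), the minor cytochrome c. It had 2051, 1959 and 1811 normalized counts in CTL, 17169, 17512 and 13466 in HR, and 1061, 997 and 789 in HS. The 3 groups did not overlap: CYC7 rose 8.27-fold after the heat ramp (log2 3.04 ± 0.14, adjusted p = 4.33e-10) and fell by 1.04 on the log2 scale after the heat shock (± 0.14, adjusted p = 4.74e-05). It was also the only member higher after the heat ramp under total count scaling (2.12). CYC1 (YJR048W, chrX:526335-526664), the major form in growing aerobic cells, had 410, 646 and 410 normalized counts in CTL, 432, 378 and 428 in HR, and 381, 471 and 313 in HS. Its groups overlapped in both comparisons (−0.21 ± 0.19, adjusted p = 0.329 after the heat ramp, −0.32 ± 0.19, adjusted p = 0.176 after the heat shock), although it fell by 1.13 after the heat ramp under total count scaling.

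COX5B (YIL111W, chrIX:155222-155765), the minor form of subunit 5 of complex IV, had 4734, 4045 and 4039 normalized counts in CTL, 7388, 8132 and 7355 in HR, and 2712, 2406 and 2199 in HS. The groups were apart, with a log2 fold change of 0.84 ± 0.12 after the heat ramp (adjusted p = 2.35e-05) and −0.81 ± 0.12 after the heat shock (adjusted p = 0.000107). Its paralog COX5A (YNL052W, chrXIV:531725-532186) had 5128, 6974 and 5694 normalized counts in CTL, 2473, 2615 and 2916 in HR, and 6010, 8112 and 6460 in HS. It moved the other way after the heat ramp (−1.14 ± 0.15, adjusted p = 7.03e-06) and did not pass the test after the heat shock (0.21 ± 0.15, adjusted p = 0.24).

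The dehydrogenases split by the same comparison. NDI1 (YML120C, chrXIII:28266-29807), which oxidizes NADH inside the matrix, had 3448, 3476 and 2862 normalized counts in CTL, 7951, 7210 and 7095 in HR, and 2244, 2322 and 2364 in HS. Each group was apart from the others, and NDI1 changed by 1.19 ± 0.12 on the log2 scale with the ramp (adjusted p = 4.54e-07) and by −0.49 ± 0.12 with the shock (adjusted p = 0.00286). NDE2 (YDL085W, chrIV:303211-304848), the lower of the external dehydrogenases, which oxidize cytosolic NADH, had 1182, 1649 and 1711 normalized counts in CTL, 2944, 2269 and 3134 in HR, and 866, 849 and 873 in HS. It followed NDI1 in both comparisons, with 0.88 ± 0.16 (adjusted p = 0.000142) and −0.79 ± 0.16 (adjusted p = 0.000818). NDE1 (YMR145C, chrXIII:554793-556475), the higher one, had 23672, 24169 and 24181 normalized counts in CTL, 11096, 9900 and 12216 in HR, and 12670, 13188 and 13893 in HS. It fell after both treatments (−1.12 ± 0.13, adjusted p = 2.35e-06 and −0.86 ± 0.13, adjusted p = 0.000107), and the highest HR library stayed under the lowest HS one.

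The rises of COX5B, NDE2 and NDI1 after the heat ramp rest on the scale: under total count scaling their log2 fold changes were −0.08, −0.03 and 0.27 (adjusted p = 0.0577 for NDI1). Ratios of paralogs within a library do not depend on it. The log2 ratio of CYC7 to CYC1 counts was 2.02 ± 0.37 in CTL, 5.27 ± 0.28 in HR and 1.30 ± 0.20 in HS (SD, n = 3), which is 4.05, 38.6 and 2.46 CYC7 reads for each CYC1 read. For COX5B to COX5A the log2 ratio was −0.47 ± 0.34, 1.52 ± 0.16 and −1.49 ± 0.31, so that the minor form had fewer counts than the major one in CTL and HS (ratios 0.724 and 0.357) and more in HR (2.86). For NDE2 to NDE1 it was −4.01 ± 0.28, −2.0 ± 0.11 and −3.94 ± 0.06, and the ratio went from 0.0623 in CTL to 0.250 in HR and 0.0652 in HS.

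Each of these ratios was higher in every HR library than in any other library. The differences between HR and CTL were 3.25, 1.98 and 2.00 on the log2 scale for CYC7 to CYC1, COX5B to COX5A and NDE2 to NDE1, and those between HR and HS were 3.97, 3.00 and 1.94. Between HS and CTL they were −0.72, −1.02 and 0.07. In exact two-sided permutation tests of 3 libraries against 3, 8 of these 9 comparisons gave p = 0.1, the smallest the design allows (0.1125 after Benjamini-Hochberg adjustment over the 9), and NDE2 to NDE1 between HS and CTL gave p = 0.9. The proteins of each pair are 81.4%, 63.6% and 57.9% identical, and the longest stretch of coding sequence they share is 35, 12 and 11 bases. These are shorter than the reads before trimming, but the authors' trimming settings let through reads shorter than 35 bases. How the authors counted reads with several matches is not given in the sources used here.

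**Figure D3:**
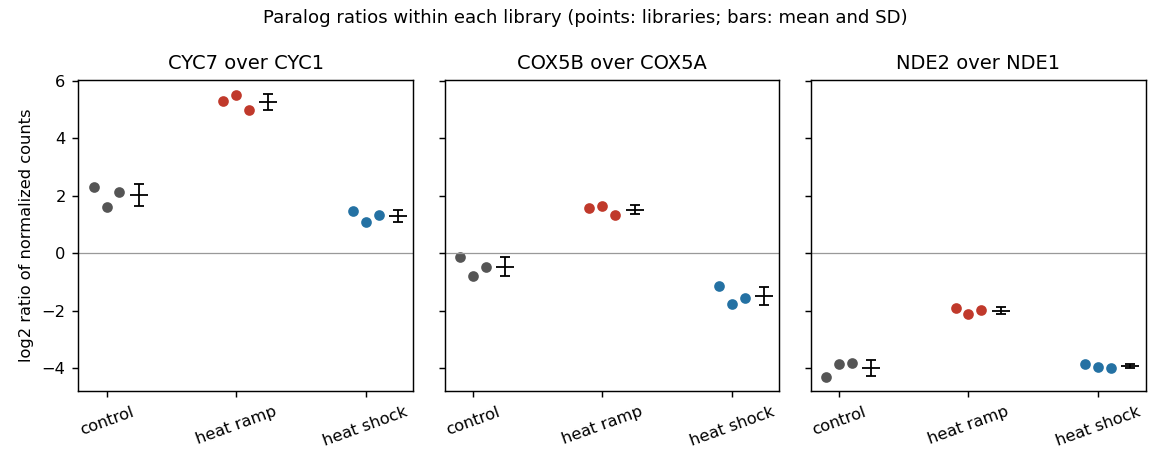
Log2 ratio of normalized counts of each paralog pair in every library (points), with the mean and SD of each group (bars). In all 3 pairs the heat ramp libraries lie above the control and the heat shock libraries, by 3.25, 1.98 and 2.00 over the control means.

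After the heat shock fewer of the 38 genes were called, and every log2 fold change but that of CYC7 lay within 1 of zero. On the deposited scale 12 of 38 were lower (27.7% of all features tested) and 5 were higher (29.9%), with a median log2 fold change of −0.08 beside 0.04 over all features. Total count scaling gave 14 lower (35.1% of all features) and 3 higher (22.3%), with a median of −0.25. Only CYC7 fell 2-fold or more (5.74% of all features did) and none rose that much (12.2% of all features did). The genes called lower came from every complex and were CYC7 (−1.04), NDE1 (−0.86), COX5B (−0.81), QCR6 (−0.80), NDE2 (−0.79), QCR2 (−0.67), ATP7 (−0.54), TIM11 (−0.53), NDI1 (−0.49), QCR8 (−0.47), ATP14 (−0.39) and ATP3 (−0.37). All 3 NADH dehydrogenases were thus lower.

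The 5 genes that were higher after the heat shock were QCR10, QCR9, ATP1, COX6 and INH1. QCR10 (YHR001W-A, chrVIII:107826-108122), a small subunit of complex III, had 8302, 11136 and 9709 normalized counts in CTL, 9770, 8497 and 8287 in HR, and 13930, 18012 and 14360 in HS. HS stood above both other groups, which overlapped, and the log2 fold change was 0.67 ± 0.15 (adjusted p = 0.002). QCR9 (YGR183C, chrVII:859063-859476), another small subunit of complex III, had 8964, 10834 and 9229 normalized counts in CTL, 8620, 5970 and 8400 in HR, and 14489, 18609 and 12727 in HS. HS was again apart and higher (0.65 ± 0.18, adjusted p = 0.00644). ATP1 rose by 0.61 ± 0.16 (adjusted p = 0.00505) and COX6, a subunit of complex IV, by 0.41 ± 0.14 (adjusted p = 0.0223; 0.23, adjusted p = 0.184 under total count scaling).

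Several of the heat shock calls depended on a single library. ATP3 lost its call without any 1 of 6 libraries (each CTL replicate, HR replicate 1, HS replicate 1 or 3), with log2 fold changes of −0.43 to −0.30 and adjusted p of 0.0535 to 0.157. For ATP7 these libraries were CTL replicates 2 and 3 and HS replicates 1 and 3 (−0.51 to −0.34, adjusted p 0.0547 to 0.117), and for ATP14 CTL replicate 2 and HS replicates 1 and 3 (−0.37 to −0.27, adjusted p 0.0697 to 0.127). For QCR8 they were each CTL replicate and HS replicate 3 (−0.50 to −0.27, adjusted p 0.0567 to 0.152), and for COX6 CTL replicates 1 and 3 and HS replicates 2 and 3 (0.30 to 0.40, adjusted p 0.0544 to 0.118). The number lower went down from 12 to 8 without CTL replicate 2 or without HS replicate 3. The number higher went from 5 to 3 without CTL replicate 1 or without HS replicate 2. CYC7, NDE1, COX5B, QCR6, NDE2, QCR2, TIM11, NDI1, QCR10, QCR9 and ATP1 kept theirs with each library left out in turn.

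The treatments were also set directly against each other. Between HR and HS, 23 of 38 genes were lower in HR (36.1% of all features tested) and 5 were higher (35.9%), with a median of −0.64 beside 0.04 over all features. Under total count scaling 34 were lower (59.8% of all features) and 4 higher (17.3%), with a median of −1.38. At 2-fold or more, 12 were lower (19.1%) and 4 higher (21.5%). CYC7 was 16.9-fold higher in HR than in HS (log2 4.08 ± 0.14, adjusted p = 4.21e-11), followed by NDI1 (1.68), NDE2 (1.67) and COX5B (1.65), and these 4 were also higher under total count scaling (3.34, 0.94, 0.93 and 0.90). RIP1 (0.37, adjusted p = 0.043) was the fifth, with overlapping groups, its sign turned under total count scaling (−0.37) and its call lost without CTL replicate 3, HR replicate 1 or 3, or HS replicate 1 or 3 (0.26 to 0.38, adjusted p 0.0578 to 0.174).

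On the lower side, 13 of 15 ATP synthase genes were below their HS level in HR. ATP20 (−1.85 ± 0.23), ATP4 (−1.79 ± 0.15) and COX8 (−1.67 ± 0.15) were the lowest, with adjusted p of 4.98e-06, 6.58e-08 and 1.37e-07. The call of COX12 (−0.48, adjusted p = 0.0252) was lost without HR replicate 3, HS replicate 2 or HS replicate 3 (−0.48 to −0.32, adjusted p 0.054 to 0.129). ATP2 (0.23), ATP17 (−0.21), QCR8 (0.23) and CYC1 (0.11) were among the 10 genes that did not pass the test, and ATP2, QCR8 and CYC1 were lower in HR by 0.51, 0.51 and 0.64 under total count scaling.

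Both treatments were compared with the same 3 control libraries, so their calls are only set side by side. COX5B, CYC7, NDE2 and NDI1 were called higher with the ramp but lower with the shock, INH1 the reverse, and none was higher after both. ATP3, ATP7, ATP14, TIM11, QCR2, QCR6 and NDE1 were lower after both. A further 13 genes were lower only in the heat ramp calls, and ATP2, ATP17, COX13, COR1, QCR7, CYT1 and CYC1 were called in neither. The share of all features with the same pairs of calls was not counted, so these numbers show nothing particular to the 38 genes. Whether the 38 genes' log2 fold changes followed coding length was also examined: Pearson's r across the 38 genes was 0.18 for HR against CTL, −0.33 for HS against CTL and 0.29 for HR against HS, where genes share libraries and are no independent replicates.

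Taken as a share of all counted reads, the 38 genes took up 1.81% ± 0.201 in CTL, 0.719% ± 0.00873 in HR and 1.57% ± 0.219 in HS (SD, n = 3). Every HR library (0.712% to 0.729%) lay below every other (1.42% to 2.04%), a ratio of 0.397 to CTL. The exact two-sided permutation p was 0.1, the smallest possible without pairing by culture (0.129 adjusted over 18 such comparisons). Within cultures, the exact sign-flip permutation test over 3 pairs gave p = 0.25 for HR against CTL. For HS against CTL the groups overlapped (ratio 0.867, exact permutation p = 0.3), but within each culture the HS share was the lower one, with differences of −0.191, −0.220 and −0.315 percentage points (exact sign-flip permutation test over 3 pairs, p = 0.25, the smallest it allows). The ATP synthase genes took up 0.778% of reads in CTL, 0.258% in HR and 0.680% in HS, complex IV 0.356%, 0.136% and 0.355%, and complex III 0.513%, 0.220% and 0.452%. Cytochrome c went the other way after the heat ramp only, with 0.0128% in CTL, 0.0462% in HR and 0.00628% in HS. The NADH dehydrogenases took up 0.152%, 0.0594% and 0.0770%, lower in both treatments with no overlap with CTL, and NDE1 held most of these reads in CTL.

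**Figure D4:**
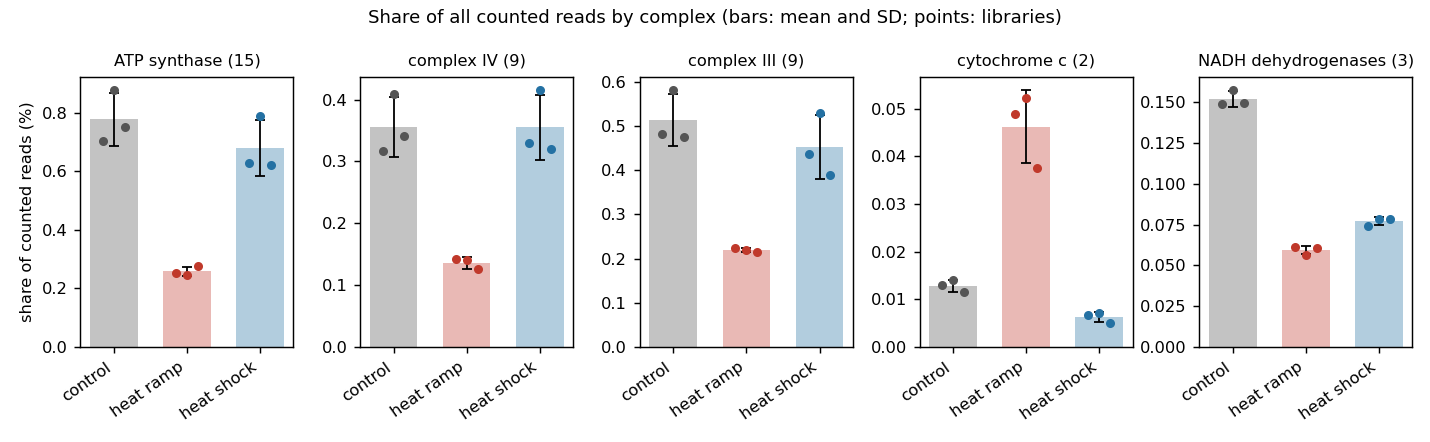
Share of all counted reads (%) on the genes of each complex, with bars for the group mean, error bars for the SD and points for the 3 libraries; each panel has its own axis from 0. The ATP synthase goes from 0.778% in control to 0.258% after the heat ramp, while cytochrome c rises from 0.0128% to 0.0462%.

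The genes also moved together between replicates of one group. CTL replicate 2 held the highest value of the 3 controls for 34 of the 38 genes, whereas it did so for 29.7% of all features tested, and HS replicate 2 held the highest for 32 of 38, beside 37.7% of all features. Those libraries came from the same culture. Their median deviations from the group mean were 0.15 and 0.22 on the log2 scale. Across the 38 genes, deviations in CTL and HS libraries of the same culture had Pearson's r of 0.54, 0.32 and 0.11. Those of different cultures had −0.40 to 0.15. Deviations cancel out over the 3 libraries of a group, so the values for same and different cultures are tied to each other. Genes share libraries and are no independent replicates, and no difference between these values was tested. HR libraries had −0.0001, −0.11 and 0.14 with the CTL library of the same culture and 0.20, −0.20 and −0.10 with the HS one. In HR, replicates 1, 2 and 3 held the highest value for 14, 10 and 14 genes and the lowest for 6, 19 and 13. Under total count scaling replicate 2 was lowest there for 14 of the 38 genes, beside 31.5% of all features. Total count scaling left the pattern of CTL and HS in place, with 35 genes highest in replicate 2 in CTL and 35 in HS. Of all features, 37.2% in CTL and 46.4% in HS were highest in replicate 2 under that scaling. When replicate 2 was left out of every group, an alternative chosen after the data were seen, 6 genes were higher and 20 lower for HR against CTL (median −0.47), 5 and 13 for HS against CTL (median −0.16) and 6 and 23 for HR against HS (median −0.48). Of all 6847 features, 2712 were then higher and 2730 lower for HR against CTL. These numbers were 1890 and 1887 for HS against CTL, and 2389 and 2439 for HR against HS.

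**Figure D5:**
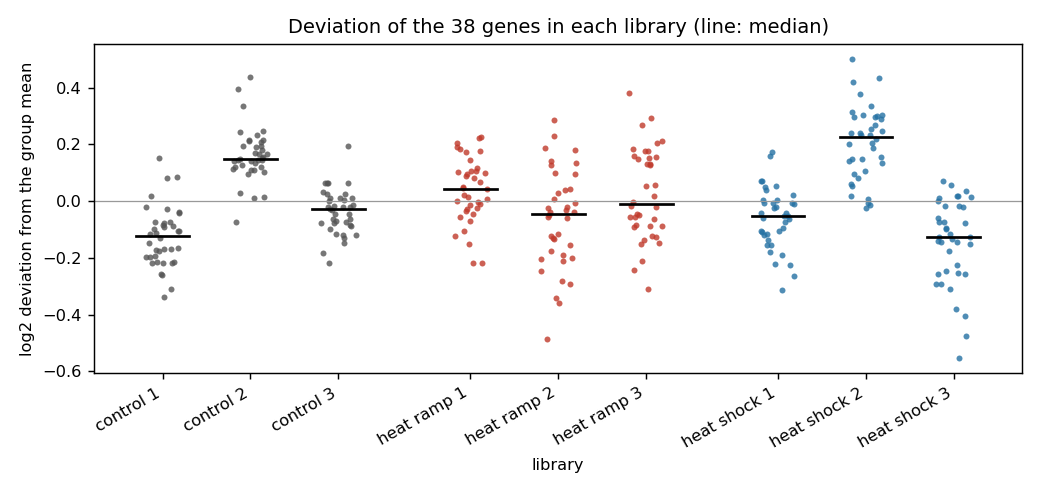
Log2 deviation of each of the 38 genes from its group mean in every library (points) and the median of each library (line). Control 2 and heat shock 2 lie above their groups, with medians of 0.15 and 0.22, and the heat ramp libraries between −0.04 and 0.04.

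The 80 other genes examined for this pathway (complex II, ubiquinone synthesis, assembly and supercomplex factors, carriers, other electron donors and regulators) gave 28 that rose and 25 that fell with the ramp, where 39.0% and 39.5% of all features did, and 7 that rose and 34 that fell with the shock, where 29.9% and 27.7% did. Scaling to total counts gave 8 and 61 for the ramp (19.4% and 64.0% of all features). For the shock it gave 3 and 41 (22.3% and 35.1% of all features). Between HR and HS 39 were higher in HR and 14 lower (35.9% and 36.1% of all features). Under total count scaling these were 12 and 45 (17.3% and 59.8% of all features). The counts for single lists that follow rest on few genes and are to be read beside such shares. The log2 fold changes of 16 genes called with the ramp turned sign under total count scaling. Of these, 6 were in complex IV assembly, 4 in ubiquinone synthesis and 3 in complex III assembly, the others being STF1, SDH3 and HAP4.

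Of 9 assembly factors of the ATP synthase, 7 were lower after the heat ramp (39.5% of all features) and none higher (39.0%). The lowest called was AEP1 (−1.05), needed to express a mitochondrially encoded subunit. After the heat shock 4 were lower (27.7% of all features), the lowest being FMC1 (−1.39), an assembly factor needed at high temperature. STF2, which stabilizes the synthase bound to its inhibitor, had 2777, 1989 and 1875 normalized counts in CTL, 23753, 24130 and 20238 in HR and 826, 693 and 761 in HS. Its groups were far apart, with log2 fold changes of 3.38 ± 0.15 (adjusted p = 3.23e-10) and −1.52 ± 0.15 (adjusted p = 3.5e-06). STF1, a paralog of INH1 that acts with it, changed by 0.66 and −1.05, the first with its sign turned under total count scaling (−0.25, adjusted p = 0.207), while INH1 itself went −0.32 and 0.38.

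Beside the counts given here, 39.0% of all features were higher and 39.5% lower with the ramp (19.4% and 64.0% under total count scaling). With the shock 29.9% were higher and 27.7% lower. Ubiquinone synthesis had 7 of 11 genes higher with the ramp and 1 lower (3 and 7 under total count scaling). The log2 fold changes ranged from COQ1 (1.52), which makes the isoprenoid tail, to COQ8 (−1.68), a kinase-like regulator of the pathway. With the shock 3 rose and 2 fell, from COQ2 (0.93) to CAT5 (−0.82). Complex II, which feeds electrons from succinate, had 2 of 4 higher after the heat ramp (0 higher and 3 lower under total count scaling), led by SDH1 (0.92, but 0.00 under that scaling), and SDH1 was the only one lower after the heat shock (−0.60). Complex IV assembly had 10 of 27 higher, led by COX15 (1.65), a heme A synthesis enzyme, and 7 lower, with PET191 lowest (−1.08; 1 higher and 19 lower under total count scaling), and after the heat shock 3 higher, led by COA3 (0.67), and 11 lower, with PET117 lowest (−1.16). Complex III and cytochrome c assembly had 3 of 11 higher, led by CYT2 (0.85, −0.07 under total count scaling), a heme lyase for cytochrome c1, and 3 lower, with CBS1 lowest (−0.89; 0 higher and 10 lower under total count scaling), and 6 lower after the heat shock, with CBP4 lowest (−0.97).

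Among supercomplex factors COX26 was higher after the heat ramp (1.51) and RCF1 and RCF2 lower (RCF2 −1.48), and RCF1 was the one lower after the heat shock (−1.51). Of the 4 carriers, AAC3, the minor ADP/ATP carrier known from low oxygen, was higher after both treatments (1.94 and 0.70, the second with adjusted p = 0.0196 and 0.057 under total count scaling), and PET9, the major ADP/ATP carrier, was lowest after the heat ramp (−1.39). Among other electron donors, CYB2, the lactate dehydrogenase that passes electrons to cytochrome c, was higher after the heat ramp (2.10) and DLD1 lower (−0.88). After the heat shock 2 of the 3 were lower (27.7% of all features), DLD1 the lowest (−0.77).

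Of the 6 regulators, ROX1, which encodes a repressor of low-oxygen genes including CYC7, COX5B and AAC3, had 33228, 35216 and 34882 normalized counts in CTL, 5871, 5275 and 5733 in HR and 31211, 37509 and 35224 in HS. HR lay far below the overlapping CTL and HS libraries (log2 fold change −2.61 ± 0.13, adjusted p = 8.94e-10). HAP4, which encodes the activating subunit of the CCAAT-binding complex, had 5240, 5277 and 4344 normalized counts in CTL, 8118, 6197 and 7235 in HR and 2033, 1781 and 1766 in HS. It was higher after the heat ramp (0.53 ± 0.13, adjusted p = 0.00223), with its sign turned under total count scaling (−0.38). After the heat shock 5 of the 6 regulators were lower (27.7% of all features), HAP5 the lowest (−1.43). Any part of these regulators in the values of the 38 genes was not tested.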

How the data were processed

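Poly(A)+ RNA of 9 libraries (3 CTL, 3 HR, 3 HS) was sequenced by the authors as 50 bp single-end reads, trimmed with Trimmomatic V0.32, aligned to SacCer3 with Bowtie2 and normalized with DESeq2. The counter, its annotation and its use of strand are not given in the sources used here. The deposited values are a signal per feature, read counts divided by the library's DESeq2 size factor, and whole reads were recovered for 100% of the values (tolerance 0.001 reads). Deposited tables of the authors' own fold changes and p-values were not used.

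Values were analysed as log2(normalized count + 1) in one limma 3.58.1 fit (R 4.3.3, trended prior, group only) over the 6847 features with a mean of at least 10, two-sided, with Benjamini-Hochberg adjustment over all of them within each comparison and a threshold of 0.05. A fold change on this scale understates that of low genes. Single values were tested with exact permutation tests that set culture aside, which with 3 against 3 cannot go below 0.1. The sign-flip tests over 3 pairs cannot go below 0.25. The fit was tested on simulated data, with 200 genes changed. Alternatives were pseudocounts of 0.1 and 5, no filter and a mean of at least 50, TMM and total count scaling, protein-coding genes only, only the groups compared, edgeR 4.0.16 and DESeq2 1.42.0 on the recovered reads, a 2-fold threshold, a replicate block and each library left out. Same-numbered libraries come from the same culture, as the study's supplement states. Their deviations from the group means correlated across features at 0.03, −0.20 and −0.01 (CTL and HR), 0.29, 0.04 and 0.05 (CTL and HS) and −0.05, −0.05 and 0.01 (HR and HS).

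Counting error allows up to 3 reads where 0 were counted, 4.20 to 4.92 normalized counts in HR and 2.05 to 2.69 in the other libraries, and covers no other error. The 38 genes and the 80 further genes were chosen with earlier results of these data known. Library values are given for the paralog pairs, for INH1 and, in each comparison, for the 3 highest and 3 lowest called genes whose groups did not overlap, and for the further genes the highest and lowest called of each list after each treatment. STF1 and the library values of STF2, ROX1 and HAP4 were added after values were seen. Promoter windows and positions come from the R64 genome and annotation of RefSeq, parsed with biopython 1.88, and 6048 of 7126 identifiers matched it.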

Additional observations from a re-analysis of the deposited data

How the results depend on the processing

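Comparisons with HR changed most with the scale between libraries. Under total count scaling, the genes higher and lower numbered 1 and 34 (HR against CTL), 3 higher (HS against CTL), with medians of −1.47 (HR against CTL) and −1.38 (HR against HS). After the heat ramp the sign turned for ATP1 (−0.89), ATP17 (−0.91), COX5B (−0.078), COX6 (−0.64), COR1 (−0.89), RIP1 (−0.50) and NDE2 (−0.033), and between HR and HS for ATP2 (−0.51), QCR8 (−0.51), RIP1 (−0.37) and CYC1 (−0.64). By construction it moves every gene by about the same amount. With a 2-fold threshold, 2 were higher after the heat ramp, for the heat shock 0 rose and 1 fell, and 12 were lower in HR than in HS. With protein-coding genes only, the heat ramp median was −0.38 and the calls of INH1 and COX12 were lost, the heat shock median was 0.03 with 8 lower (ATP3, ATP7, ATP14 and QCR8 were lost), and the HR share was 0.729% of protein-coding reads; the cause was not tested.

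With single libraries left out, the range was 4 to 6 higher and 19 to 21 lower for the heat ramp (median −0.68 to −0.42), 3 to 6 and 8 to 13 for the heat shock (median −0.23 to −0.00), and 4 to 6 and 22 to 23 between HR and HS (median −0.67 to −0.55). The replicate block, with culture as a paired factor, changed no call among the 38 genes (5 higher and 21 lower, 5 and 12, 5 and 23). DESeq2 and edgeR gave 5 and 21, and 4 and 22, for the heat ramp, and 5 and 13, and 5 and 12, for the heat shock.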
